A study of Mus musculus with 4 samples.

Results

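Hmgcs1, Sqle, Idi1, Fdps, Lss, Cyp51 and Insig1 are 7 genes of cholesterol synthesis and its control, read here in single cells of day 6 EBs (embryoid bodies) made from mouse ESCs. They were chosen by symbol, and all 7 are rows of the deposited tables, out of 25209 genes in all. The genotypes compared were LSD1KO and WT, with 2 libraries each, from cells of the V6.5 line. In LSD1KO cells, CRISPR/Cas9 had removed the promoter and first exon of Lsd1 (Kdm1a), which encodes a histone demethylase. Both genotypes were kept as ESCs in serum-free medium with 2i and LIF and were differentiated as hanging drops in serum medium without them. The methods speak of independent clones for RNA-seq where they describe bulk RNA, and do not say whether the 2 LSD1KO libraries here come from 1 or 2 clones. Kdm1a was at 1.16 and 0.84 CPM (UMIs per 1000000 UMIs of a library's cells) in the LSD1KO libraries, against 217 and 229 CPM in the WT libraries.

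Cells were the barcodes with 500 or more UMIs and 500 or more genes. There were 5693 and 3045 of them in the LSD1KO libraries, with a median of 11402 and 20304 UMIs per cell. The WT libraries had 4393 and 6828 cells, with a median of 11698 and 9211 UMIs. Library totals were 72285943 to 75406512 UMIs over all barcodes, and 2 libraries shared at most 15 barcodes among their cells. Of the 18454 genes seen in at least 10 cells, 16953 were tested, all 7 genes among them.

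Cholesterol is built from acetyl-CoA through mevalonate, isoprenoid diphosphates, squalene and lanosterol. The genes of this route are switched on together by SREBP2, a membrane-bound transcription factor that is carried to the Golgi and cleaved when sterols in the endoplasmic reticulum are low. INSIG1 holds the SREBP escort SCAP in the endoplasmic reticulum when sterols are high, and its own gene is an SREBP target. Cells also take cholesterol in with lipoproteins by endocytosis, and the NPC proteins release it from lysosomes. Dividing embryonic cells need cholesterol for new membrane, and also for the signalling protein Sonic hedgehog, which carries it as a lipid anchor.

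Positions on mm9 (NCBIM37, GENCODE M1) were found for 6 of the 7 genes. Idi1 (isopentenyl-diphosphate isomerase) lies at chr13:8884852-8891641 on the plus strand. Fdps (farnesyl diphosphate synthase) lies at chr3:88897514-88905881 on the minus strand. Sqle (squalene epoxidase) lies at chr15:59146632-59162747 and Lss (lanosterol synthase) at chr10:75994333-76019883, both on the plus strand. Cyp51 (lanosterol demethylase) lies at chr5:4081145-4104746 on the minus strand, and Insig1 lies at chr5:28397952-28405201 on the plus strand. UMIs were read at the 3′ end of the transcripts, so the values describe whole genes and not isoforms.

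RefSeq promoter windows, from 250 bases before to 50 bases after a gene's start, matched 5 of the 7 genes: Hmgcs1, Idi1, Lss, Cyp51 and Insig1. Of these, 4 are printed, since Hmgcs1, Cyp51 and Insig1 were the genes called lower in LSD1KO EBs and Idi1 was not. They come from GRCm38.p6, a later build than the files use: Hmgcs1 from chr13:119690101-119690400, Cyp51 from chr5:4104648-4104947 on the minus strand, Insig1 from chr5:28071162-28071461 and Idi1 from chr13:8885356-8885655. They are written 5′ to 3′ along each gene. Capitals mark TCACNCCAC, a form of the sterol regulatory element that SREBPs bind, and CCAAT, the box bound by NF-Y, an SREBP partner. Both motifs were searched on both strands, so that CCAAT on the other strand reads ATTGG.
Hmgcs1: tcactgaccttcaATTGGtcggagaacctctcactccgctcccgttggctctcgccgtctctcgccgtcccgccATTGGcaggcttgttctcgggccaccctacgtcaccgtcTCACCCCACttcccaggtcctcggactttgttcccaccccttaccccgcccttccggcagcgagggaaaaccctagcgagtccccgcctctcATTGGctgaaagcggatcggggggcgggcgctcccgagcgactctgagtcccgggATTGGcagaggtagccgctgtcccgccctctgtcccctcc
Cyp51: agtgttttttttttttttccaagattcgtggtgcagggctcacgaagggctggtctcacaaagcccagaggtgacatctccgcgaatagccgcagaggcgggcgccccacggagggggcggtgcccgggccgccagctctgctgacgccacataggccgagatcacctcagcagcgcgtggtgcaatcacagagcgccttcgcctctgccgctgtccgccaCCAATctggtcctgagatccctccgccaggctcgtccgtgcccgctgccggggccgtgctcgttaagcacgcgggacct
Insig1: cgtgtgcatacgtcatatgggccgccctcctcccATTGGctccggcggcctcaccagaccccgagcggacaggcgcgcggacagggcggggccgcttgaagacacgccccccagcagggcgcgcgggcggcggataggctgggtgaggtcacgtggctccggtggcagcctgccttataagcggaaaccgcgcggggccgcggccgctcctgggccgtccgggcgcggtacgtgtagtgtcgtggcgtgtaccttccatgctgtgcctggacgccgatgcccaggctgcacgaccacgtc
Idi1: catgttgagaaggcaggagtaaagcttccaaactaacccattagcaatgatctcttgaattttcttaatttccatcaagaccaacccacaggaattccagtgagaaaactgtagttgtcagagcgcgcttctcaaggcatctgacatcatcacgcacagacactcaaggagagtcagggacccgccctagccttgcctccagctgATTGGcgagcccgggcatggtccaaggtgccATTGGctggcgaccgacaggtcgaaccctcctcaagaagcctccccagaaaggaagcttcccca

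The Hmgcs1 window held TCACNCCAC 1 time, starting 137 bases before the gene's start, and CCAAT 4 times. The windows of Idi1, Lss, Cyp51 and Insig1 held no TCACNCCAC. All 5 windows held CCAAT, with 2 matches in Idi1 and 1 each in Lss, Cyp51 and Insig1. The matches of the 2 motifs did not overlap in these windows. Over 27025 genes with a window, 1.22% held TCACNCCAC, 37.9% held CCAAT and 0.433% held both. A match is a description of the letters in a window.

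In whole EBs, that is in the sums over all kept cells of a library, the 7 genes did not move as one. Hmgcs1, Cyp51 and Insig1 were lower in LSD1KO EBs by a log2 fold change of −0.69 to −0.88, while Sqle, Idi1, Fdps and Lss did not pass the test. So 3 of 7 genes were called lower, against 21.6% of all genes tested, and 0 of 7 were called higher, against 22.6%, also with DESeq2 or at an unadjusted p under 0.05. The median log2 fold change of the 7 genes was −0.50, and that of all genes −0.001. Levels are given as CPM with library sizes adjusted by edgeR's TMM factors, and the test was edgeR's quasi-likelihood test with Benjamini-Hochberg adjustment over the 16953 genes (threshold 0.05).

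Hmgcs1, whose product makes HMG-CoA at the entry of the mevalonate route, was at 59.9 and 64.6 CPM in the LSD1KO libraries, against 124 and 96.7 CPM in the WT libraries. Both LSD1KO libraries lay below both WT libraries, by a wider gap than either pair spanned. The log2 fold change came to −0.83 ± 0.14 (standard error), with an adjusted p of 0.00695 by edgeR's quasi-likelihood test. Cyp51, which takes the first methyl group off lanosterol, was at 36.0 and 39.1 CPM in the LSD1KO libraries and at 70.0 and 50.8 CPM in the WT libraries. The groups did not overlap, and the log2 fold change came to −0.69 ± 0.16 (adjusted p = 0.0215, same edgeR test). Insig1, the sterol-sensing retention protein, was at 9.80 and 12.8 CPM in the LSD1KO libraries and at 24.2 and 17.5 CPM in the WT libraries. The groups did not overlap here either, with a log2 fold change of −0.88 ± 0.21 (adjusted p = 0.0214, same edgeR test).

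Fdps, which joins isoprene units into farnesyl diphosphate, was at 72.2 and 87.7 CPM in the LSD1KO libraries, against 132 and 93.8 CPM in the WT libraries. The second library of each genotype differed little, and the log2 fold change was −0.50 ± 0.19 (adjusted p = 0.0785, edgeR). Lss, which folds oxidosqualene into lanosterol, was at 7.72 and 9.17 CPM in the LSD1KO libraries and at 13.4 and 9.39 CPM in the WT libraries. Its groups were apart by less than the WT libraries were from each other, and the log2 fold change was −0.43 ± 0.21 (adjusted p = 0.147, edgeR). Sqle, which oxidises squalene at a slow step of the route, was at 25.5 and 29.8 CPM in the LSD1KO libraries and at 35.2 and 26.7 CPM in the WT libraries. The groups overlapped, with a log2 fold change of −0.16 ± 0.16 (adjusted p = 0.451, edgeR). Idi1, which interconverts the 2 isoprene building blocks, was at 50.8 and 59.0 CPM in the LSD1KO libraries and at 52.8 and 47.2 CPM in the WT libraries. It was the single gene of the 7 with a fold change above 0, 0.14 on the log2 scale (± 0.11, adjusted p = 0.363, edgeR), and its groups overlapped too.

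Both LSD1KO libraries lay below both WT libraries for 5 of the 7 genes, and this held for 38.4% of all genes tested. Together the 7 genes held 262 and 302 CPM in the LSD1KO libraries, against 452 and 342 CPM in the WT libraries. WT replicate 1 was thus the library highest in 6 of the 7 genes, all but Idi1. In RNA outside cells, taken from barcodes under 100 UMIs, the 7 genes together were at 289 and 319 CPM in the LSD1KO libraries and at 442 and 326 CPM in the WT libraries, on plain totals. The sum was ordered over the libraries as in cells, but single genes were not all at the level of the cells. In LSD1KO replicate 2, Fdps was at 161 CPM in free RNA, against 91.0 CPM in cells, and Hmgcs1 at 43.2, against 67.0 CPM. The part of free RNA in the values was not tested.

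**Figure D1:**
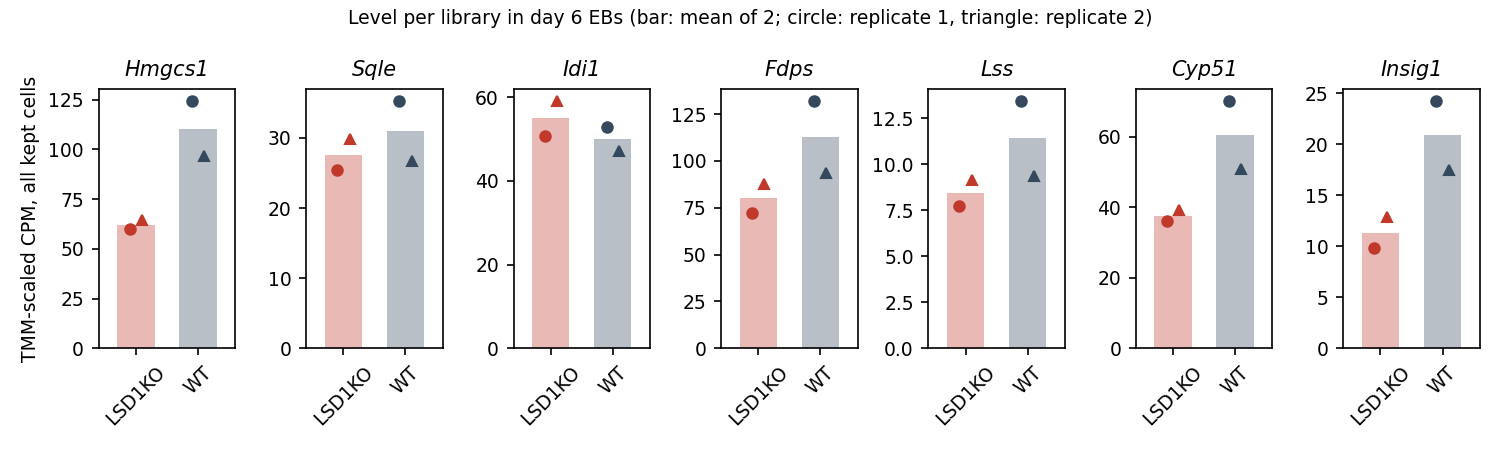
Level of each of the 7 genes in the LSD1KO (left) and WT (right) libraries, in TMM-scaled CPM over all kept cells. Bars are means of 2 libraries, circles replicate 1 and triangles replicate 2. Hmgcs1, Cyp51 and Insig1 show both LSD1KO points well below both WT points, Sqle and Idi1 show overlapping points, and WT replicate 1 is the highest point in all but Idi1.

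The calls other than Hmgcs1 depended on single libraries, while their folds kept their sign. Insig1 no longer passed without WT replicate 1 (log2 fold change −0.63, adjusted p = 0.0782, edgeR) or LSD1KO replicate 1 (−0.70, 0.0558). Cyp51 no longer passed without LSD1KO replicate 1 (−0.63, 0.0604) or with plain library totals in place of TMM (−0.56, 0.0613). Without WT replicate 2, Fdps and Lss had log2 fold changes of −0.72 and −0.67, larger falls than with all libraries. Sqle turned to 0.055 on the log2 scale without WT replicate 1. Plain totals shifted the log2 fold change of the median gene by 0.13.

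Of 13 other enzymes of sterol synthesis, 6 were called lower in LSD1KO EBs and 0 higher, against 21.6% and 22.6% of all genes tested, with a median log2 fold change of −0.42. With the 6 enzymes among the 7 genes, this made 8 of 19 enzymes lower, at scattered steps of the route. Before the isoprenoids, Acat2, which condenses acetyl-CoA, fell by 0.88 on the log2 scale. The kinase Pmvk fell by 0.42. The decarboxylase Mvd fell by 1.26, the largest fall of the 19. Mvk had a log2 fold change of −0.41 and did not pass. After lanosterol, Msmo1 fell by 0.94 and Nsdhl fell by 0.84, both enzymes of methyl group removal, and Ebp, which shifts a double bond, fell by 0.56. Fdft1 (squalene synthase), Tm7sf2, Lbr, Hsd17b7 and Sc5d did not pass, with log2 fold changes of −0.54, −0.33, 0.02, −0.32 and −0.31. Dhcr7, a reductase at the end of the route, did not pass either, at 0.02.

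**Figure D2:**
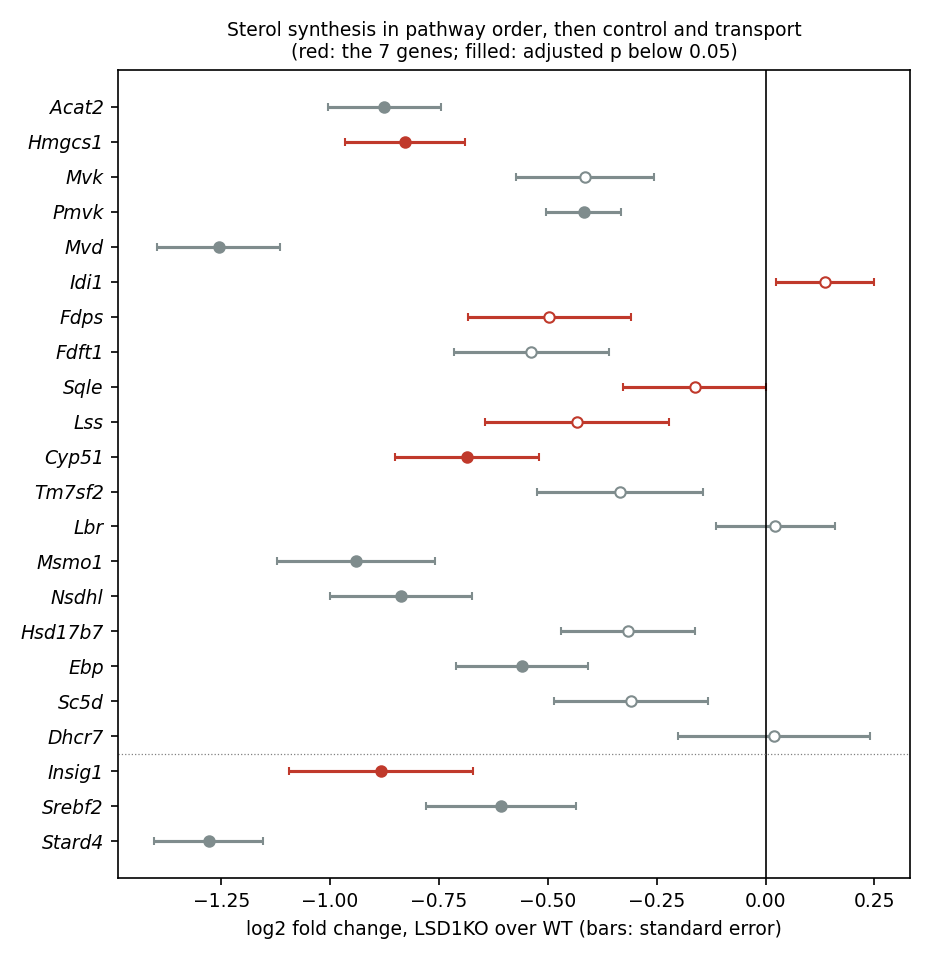
Log2 fold change, LSD1KO over WT, of 19 enzymes in the order of the route from top to bottom, followed by Insig1, Srebf2 and Stard4. Bars are standard errors, red marks the 7 genes and filled points have an adjusted p below 0.05. Most points lie left of 0, Mvd is the lowest of the enzymes, and Idi1, Lbr and Dhcr7 lie right of 0 with open points.

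Of 14 genes of uptake and transport, 8 were lower in LSD1KO EBs and 2 were higher, against the same 21.6% and 22.6% of all genes, with a median log2 fold change of −0.765. Npc1, which exports cholesterol from lysosomes, was at 27.3 and 27.8 CPM in the LSD1KO libraries and at 64.1 and 57.3 CPM in the WT libraries, and fell by 1.14 on the log2 scale (adjusted p = 0.00108, edgeR). Stard4, which carries sterol between membranes, fell by 1.28, and the lipoprotein receptor Vldlr fell by 1.89. Lrp2, or megalin, a large endocytic receptor of epithelia that also binds lipoproteins, ran the other way. It was at 109.5 and 133 CPM in the LSD1KO libraries and at 36.9 and 33.4 CPM in the WT libraries, a log2 fold change of 1.79 (adjusted p = 0.000753, edgeR).

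Of 12 genes that control SREBPs or sterol-driven degradation, 8 were lower and 0 higher, with a median of −0.43. Srebf2, which encodes SREBP2 itself, was at 25.5 and 25.3 CPM in the LSD1KO libraries and at 45.4 and 32.2 CPM in the WT libraries, a log2 fold change of −0.61 (adjusted p = 0.036, edgeR). The SREBP-cleaving protease Mbtps2 fell by 0.73, the ubiquitin ligase Marchf6 fell by 0.67, and Aup1, which acts in the degradation of endoplasmic reticulum proteins, fell by 0.45. The counts of the other lists were closer to the shares of all genes, 21.6% lower and 22.6% higher, or below them. Of 9 genes of efflux and esters that could be tested out of 11, 2 were higher and 2 lower, and Apoe, the lipoprotein component, fell by 0.78. Of 11 genes of fatty acid synthesis, 2 were higher and 1 lower, with a median of 0.21. Me1, which supplies NADPH, rose by 1.17 and Fads1, a desaturase, by 0.32 on the log2 scale. Of 10 genes of the isoprenoid branches that do not lead to sterols, 1 was higher and 3 lower, with a median of −0.08. Pdss1, of the ubiquinone tail, rose by 0.47, while Dhdds, of dolichol, fell by 0.48, Pggt1b, of protein prenylation, fell by 0.42, and Coq2 fell by 0.31.

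The whole-EB sums mix cell types that differ between the genotypes, so fewer cells of a type and less RNA per cell cannot be told apart in them. Cells were therefore gated by markers, 8 for each of 10 classes, none of them among the 7 genes. A cell joined the class with the most of its markers at 1 UMI or more, if these were at least 3. A cell with at least 3 pluripotent and 3 neural markers, in numbers that differed by 1 or 0, formed a mixed class. Of 3094 pluripotent, 1034 neural and 222 anterior cells, 450, 374 and 175 had just 3 markers of their class, and the class of naive or germ markers had 10 cells in all. The gate placed 72.6% of cells of each LSD1KO library, against 50.3% and 46.4% of cells of the WT libraries. The ungated cells had a median of 2070 and 1518 UMIs in the LSD1KO libraries, against 3853 and 7901 in the WT libraries. In the LSD1KO libraries, 3559 and 2150 cells were pluripotent, neural or mixed, against 184 and 575 cells in the WT libraries. The endothelial, visceral endoderm and heart and lateral mesoderm classes together held 5 and 5 cells of the LSD1KO libraries, against 1259 and 1338 cells of the WT libraries.

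In each class but that of naive or germ markers, the 10 leading genes by fold held more of its own markers than of any other class. The gate itself favours this, since cells were placed by these markers, so it is no separate check of the class names. For the mixed class, pluripotent and neural markers both counted as its own. All leading genes were ranked over the gated cells of both genotypes together. Beside the markers, the endothelial class was led by Ctla2a and the visceral endoderm class by Apob. The pluripotent class was led by Tdh, at 44.6 CPM against 3.42 CPM in the other gated cells. The neural class was led by Ptn (183 against 27.5 CPM) and the mixed class by Gpc5 (75.7 against 24.8 CPM). Tagln was among the leading genes of both the neural (785 against 279 CPM) and the mixed class (608 against 224 CPM). The anterior class was led by Kirrel3, Fzd5 and Lmx1a, and also had the endoderm gene Cer1 among its leading genes. The epithelial class, led by S100a6 and Cldn7, also had the heart muscle genes Tnnc1, Myl3 and Myh7 among its leading genes, and whether these came from the same cells was not tested. The mesenchyme class had Ptgds first and Cer1 among its leading genes as well.

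Within WT EBs the 7 genes varied 3.61-fold between classes as a sum. Plain CPM of the 7 together were highest in the endothelial class, at 749.5 and 629 CPM in the 2 libraries, and lowest in the anterior class, at 209 and 173 CPM. In between came visceral endoderm (mean 542 CPM), the mixed class (474), heart and lateral mesoderm (463) and the neural class (457). The pluripotent (327), epithelial (307) and mesenchyme (297) classes followed. Neighbours in this order overlapped between libraries, except that the neural class lay above the pluripotent class and the mesenchyme class above the anterior class. WT replicate 1 was far above replicate 2 in heart and lateral mesoderm, at 574 and 353 CPM. The streak class had 25 cells in WT replicate 1 and was not fitted, and its 66 cells of WT replicate 2 held 364 CPM.

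**Figure D3:**
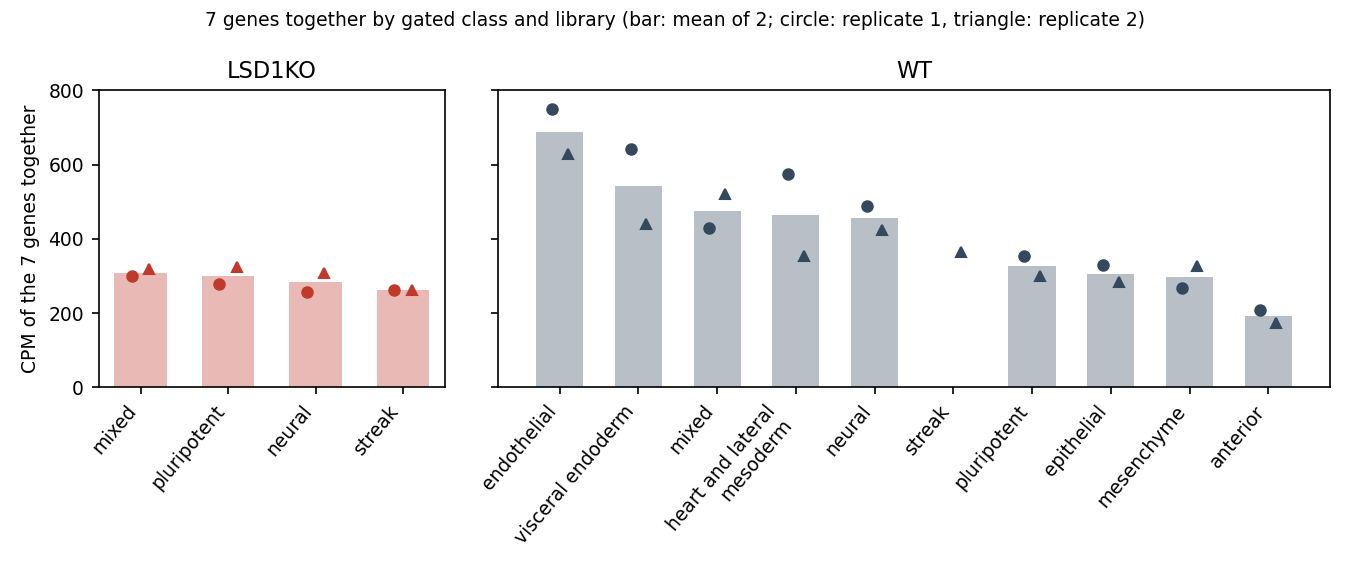
CPM of the 7 genes together in each gated class of the LSD1KO (left) and WT (right) libraries, in falling order of the mean. Bars are means of 2 libraries, circles replicate 1 and triangles replicate 2, and the WT streak class has 1 library only. The LSD1KO classes all lie between 258 and 324 CPM, while the WT classes, several of which had too few LSD1KO cells, span 173 to 749.5 CPM. The pluripotent, neural and mixed classes of WT lie between 300 and 520 CPM.

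Each WT class was tested against the mean of the other 8 over 12542 genes, with the library as a block. Of the 63 pairs of gene and class, 15 were called higher and 15 lower. In all 30 each library alone had the sign of the fit, but the calls were made from these same 2 libraries. The shared sign is thus no separate test. The endothelial class had 6 of 7 genes higher, against 18.1% of all genes, with Fdps at 1.12 and Idi1 and Hmgcs1 at 1.08 above the other classes on the log2 scale. Lss alone missed, at 0.34. Hmgcs1 was at 219.6 and 188 CPM in the endothelial class of WT replicates 1 and 2, against 52.6 and 50.5 CPM in the anterior class. The anterior class had 6 of 7 genes lower, against 5.14% of all genes, and again Lss alone missed. There Fdps was at −1.39 and Hmgcs1 at −1.23 relative to the other classes on the log2 scale. Over the gated cells of all 4 libraries, LSD1KO and WT pooled, the anterior class had Shh at 147 CPM, against 2.07 CPM in the other classes. The product of Shh carries cholesterol, but Shh was among the markers that define the class.

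Visceral endoderm, the extraembryonic layer that makes apolipoproteins, had 5 of 7 genes higher, against 22.3% of all genes. Insig1, at 1.24, and Fdps, at 1.15 on the log2 scale, stood out from Lss, Cyp51 and Hmgcs1 at 0.41 to 0.57. Insig1 had its highest level here, a mean of 40.0 ± 3.9 CPM (SD, n = 2), above the endothelial class at 32.5 ± 0.66 CPM. Heart and lateral mesoderm had Hmgcs1, Fdps and Cyp51 higher, 3 of 7 against 17.4% of all genes, by 0.30 to 0.37. These calls rested mostly on WT replicate 1, which alone had Hmgcs1 at 0.61, Fdps at 0.528 and Cyp51 at 0.584. WT replicate 2 alone had them at 0.003, 0.068 and 0.079. The mixed class had Idi1 alone higher, by 0.82, which is 1 of 7 against 8.86%.

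The epithelial class had 4 of 7 genes lower, against 10.5% of all genes, with Lss and Insig1 lowest, at −0.61 and −0.62. The mesenchyme class had Idi1, Fdps and Hmgcs1 lower, 3 of 7 against 8.78%, at −0.43 to −0.72. Hmgcs1 there was at −0.728 in WT replicate 1 alone and at −0.057 in WT replicate 2 alone. The pluripotent class had Fdps and Cyp51 lower, 2 of 7 against 13.5%, at −0.52 and −0.68. In the neural class 0 of 7 genes were called by edgeR, against 12.8% of all genes in either direction. At an unadjusted p under 0.05, for which no share of all genes is given, there was 1 of 7, Hmgcs1 (0.0123, edgeR). With a gate of at least 4 markers the 3 calls of heart and lateral mesoderm were lost, at 0.073 for Hmgcs1, 0.106 for Cyp51 and −0.042 for Fdps. That gate left 4 of the 6 higher genes of the endothelial class, without Sqle (adjusted p = 0.0578, edgeR) and Insig1 (0.0851). It left 3 of the 5 of visceral endoderm, without Hmgcs1 (0.212) and Cyp51 (0.118), and did not leave Idi1 in the mixed class (0.052). Fdps and Cyp51 in the epithelial class and Cyp51 in the mesenchyme class were lower with it as well. The anterior and pluripotent classes had too few cells to be fitted with it, which left 7 classes. Each class was thus set against a mean that no longer held the anterior class, where the 7 genes together were lowest. Whether calls changed through the cells gated or through this other comparison was not tested.

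**Figure D4:**
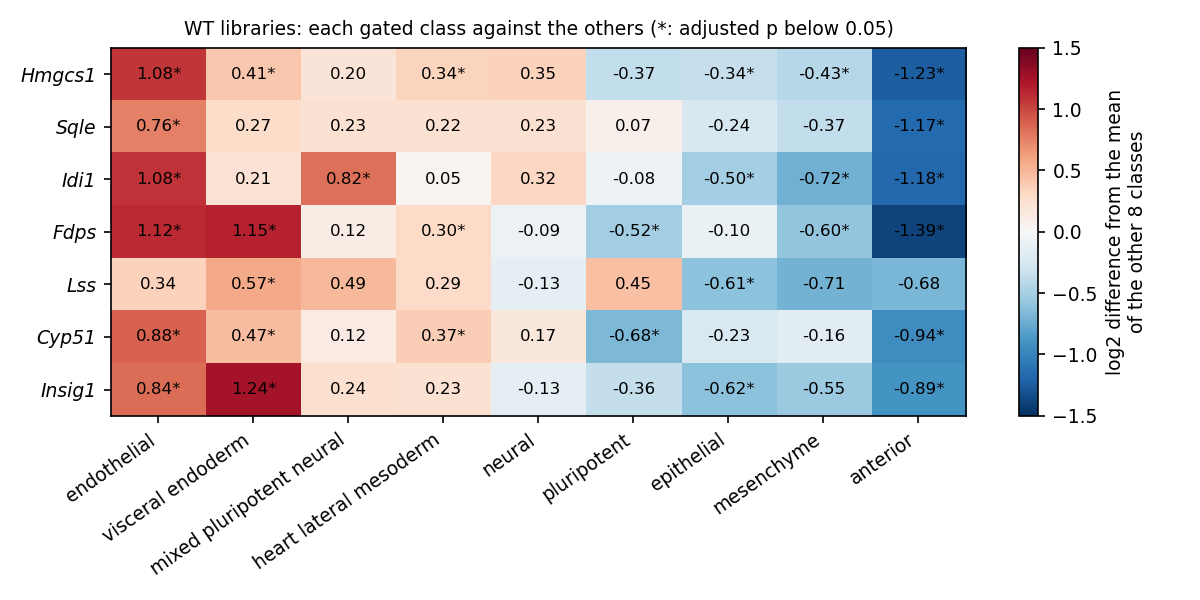
Log2 difference of each gene (rows) in each gated class of the WT libraries (columns) from the mean of the other 8 classes, on the edgeR scale. Stars mark adjusted p below 0.05. The endothelial and visceral endoderm columns on the left are red almost throughout, and the anterior column on the right is blue throughout, with Lss the weakest gene in it.

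Other genes of the route varied across the WT classes as well. Of the 13 other synthesis enzymes, 10 were higher in the endothelial class, against 18.1% of all genes, and 11 in visceral endoderm, against 22.3%, with 0 lower in either. In the anterior class 5 were lower, against 5.14%, and in the mesenchyme class 6, against 8.78%, with 0 higher in either. Heart and lateral mesoderm had 4 higher, against 17.4%, and 0 lower, against 15.2%. The epithelial class had 2 higher, against 18.1%, and 2 lower, against 10.5%. The pluripotent class had 1 higher, against 16.1%, and 2 lower, against 13.5%. The neural class had 1 higher, against 8.24%, and 0 lower, against 4.52%. The mixed class had 0 in either direction, against 15.5%. Over the 27 sums of at least 30 cells (class by library), the 5 genes most alike in pattern to the mean of the 7 included Msmo1 (Pearson r = 0.94), Acat2 (0.87) and Srebf2 (0.87), out of 6662 genes compared. The sums share libraries and differ in depth, so these correlations describe and test nothing. Among the 7, Hmgcs1 followed the mean of the other 6 most closely (r = 0.92) and Idi1 least (0.70). Hmgcs1 and Cyp51 were the closest pair (r = 0.94), and Idi1 and Insig1 the least close (0.44).

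Within LSD1KO EBs the 7 genes were nearly level, over fewer classes than in WT EBs. The 4 classes with enough cells were the mixed, pluripotent, neural and streak classes, at means of 309, 300.5, 283 and 263 CPM of the 7 genes together, with overlapping libraries in each neighbouring pair. Single genes ranged 1.11-fold (Hmgcs1) to 2.21-fold (Insig1) between classes. Insig1 was at 11.5 and 14.2 CPM in the pluripotent class, against 7.70 and 3.92 CPM in the streak class, where LSD1KO replicate 2 had 5 Insig1 UMIs in 45 cells. Against the mean of the other 3 classes, over 15009 genes, the pluripotent class had Sqle (0.23), Fdps (0.26) and Insig1 (0.46) higher on the log2 scale, 3 of 7 against 11% of all genes. In the other classes edgeR called 0 of 7 genes, where it called 2.05% of all genes in the mixed class, 10.8% in the neural class and 13.8% in the streak class. At an unadjusted p under 0.05 there were 2 of the 7 genes in the mixed class, 1 in the neural class and 3 in the streak class. The shares of all genes above are at the adjusted threshold and cannot be set against these counts. When each cell was thinned to 1000 UMIs, none of the 3 calls of the pluripotent class was left, and Fdps there turned to −0.072.

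The pluripotent, neural and mixed classes had at least 30 cells in all 4 libraries, so LSD1KO cells could be set against WT cells of the same gate. In the mixed class 4 of 7 genes were lower in LSD1KO cells, against 3.5% of all genes. In the neural class 2 of 7 were lower, against 4.67%. In the pluripotent class 0 of 7 were called, against 15.9% of all genes in either direction. At an unadjusted p under 0.05, for which no share of all genes is given, there were 2 of 7 (Hmgcs1 and Lss). The median log2 fold change of the 7 was −0.70, −0.64 and −0.14 in the mixed, neural and pluripotent class, and that of all genes 0.05, −0.003 and 0.02.

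Hmgcs1 was lower in LSD1KO cells of the neural class, at 60.7 and 67.3 CPM (TMM-scaled), against 158 and 139 CPM in WT cells. The groups lay far apart, with a log2 fold change of −1.22 ± 0.13 (adjusted p = 0.00304, edgeR). In the mixed class it was at 67.9 and 68.7 CPM in LSD1KO cells and at 119 and 142 CPM in WT cells, a log2 fold change of −0.94 ± 0.12 (adjusted p = 0.0065, edgeR). In the pluripotent class Hmgcs1 was at 57.9 and 67.3 CPM in LSD1KO cells and at 107 and 82.4 CPM in WT cells. The groups did not overlap there, but the log2 fold change of −0.54 ± 0.16 did not pass (adjusted p = 0.0556, edgeR).

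Cyp51 fell by 0.70 on the log2 scale in both the mixed (adjusted p = 0.0207, edgeR) and the neural class (0.0473). It was at 41.7 and 39.2 CPM in LSD1KO cells of the mixed class, against 64.0 and 67.5 CPM in WT cells. In the pluripotent class its groups overlapped, at 32.2 and 40.0 CPM in LSD1KO cells and 50.3 and 33.7 CPM in WT cells. Insig1 fell by 1.07 in the mixed class, just past the threshold (adjusted p = 0.0497, edgeR). Insig1 was at 10.6 and 12.8 CPM in LSD1KO cells there and at 19.9 and 28.7 CPM in WT cells. In the neural class its log2 fold change of −0.97 missed the threshold (adjusted p = 0.0511, edgeR), with groups that did not overlap, at 8.81 and 11.7 CPM in LSD1KO cells and 17.9 and 21.9 CPM in WT cells. Fdps fell by 0.49 in the mixed class (adjusted p = 0.0448, edgeR) and was at −0.47 in the neural class, where it did not pass (0.0827). In the pluripotent class Fdps was at 80.4 and 100.5 CPM in LSD1KO cells, against 65.9 and 80.9 CPM in WT cells, a log2 fold change of 0.26 that did not pass either. Idi1 had log2 fold changes of −0.63, −0.49 and 0.18 in the mixed, neural and pluripotent class, Sqle of −0.32, −0.64 and −0.14, and Lss of −0.76, −0.49 and −0.75, none of which passed.

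**Figure D5:**
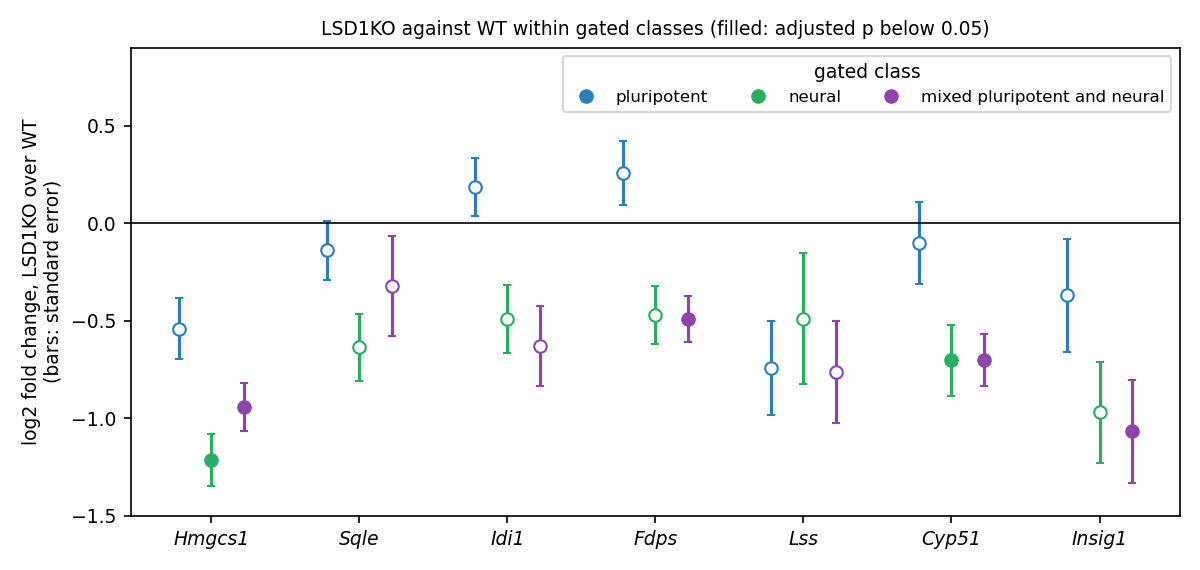
Log2 fold change, LSD1KO over WT, of each gene within the pluripotent, neural and mixed classes. Bars are standard errors and filled points have an adjusted p below 0.05. All 14 points of the neural and mixed classes lie below 0, while Idi1 and Fdps lie above 0 in the pluripotent class.

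Whether the genotypes differed more in 1 class than in another was tested in 1 model over the 12 sums of 3 classes and 4 libraries, with the library as a block, a test chosen with the data in view. The value is the LSD1KO over WT log2 fold change of the neural or mixed class less that of the pluripotent class. For Idi1 it was −0.74 in the neural class (adjusted p = 0.0386, edgeR) and −0.89 in the mixed class (0.0309). For Fdps it was −0.68 in the neural class (0.0425), and for Hmgcs1 it was −0.65 and did not pass (0.0536). This made 2 of 7 genes in the neural class, against 3.2% of all genes tested, and 1 of 7 in the mixed class, against 1.81%. None of these 3 differences passed when any 1 library was left out.

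The WT arms of these comparisons were small. WT replicates 1 and 2 had 30 and 72 mixed, 109 and 225 neural and 45 and 278 pluripotent cells, against 1388 and 850, 507 and 193, and 1664 and 1107 cells of the LSD1KO libraries. Calls in the mixed and neural classes were lost or gained when 1 library was left out, in fits with 1 library of a genotype. In the mixed class without WT replicate 2, Hmgcs1, Fdps, Cyp51 and Insig1 had log2 fold changes of −0.79, −0.40, −0.65 and −0.75. Sqle there turned to 0.25. Without WT replicate 1, Fdps, Cyp51 and Insig1 were at −0.55, −0.73 and −1.28 in the mixed class. In the neural class Cyp51 was at −0.91 without WT replicate 2 and at −0.47 without WT replicate 1. Without LSD1KO replicate 2, Sqle, Idi1, Fdps and Insig1 were at −0.71, −0.66, −0.595 and −1.17 in the neural class. The mixed class had the highest median of UMIs per cell of the fitted classes in every library. It was at 15418 and 29037 UMIs in the LSD1KO libraries and at 26875.5 and 13860 UMIs in the WT libraries. No doublets were removed, and the part of depth and doublets in this class was not tested. The gate takes cells by marker counts, and whether LSD1KO and WT cells of 1 gate were at the same stage was not tested.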

How the data were processed

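Single cells of day 6 EBs were counted in 4 droplet libraries, 2 of LSD1KO and 2 of WT. The deposited files hold UMI counts of every gene in every barcode, which the authors made with Cell Ranger 7.1.0, against mm9 per the submitters' processing notes, with no filter, normalization or pooling. Cells were barcodes of 500 or more UMIs and 500 or more genes, and genes had to be seen in at least 10 of them. The tables hold 0 mitochondrial genes, and no doublets were removed. UMIs were summed per library, or per library and class of at least 30 cells, and tested with edgeR 4.0.16 (filterByExpr, TMM, quasi-likelihood test) in R 4.3.3. Class contrasts within a genotype had the library as a block. Sums and figures were made with Python 3.11.15 and matplotlib 3.10.9. Replicates differed beyond counting noise, with a chi-square per degree of freedom of 29.3 for the LSD1KO libraries and of 66.9 for the WT libraries. The paper calls them biological, and p-values of the genotype tests measure only the spread between these libraries. Where the library was a block, p-values measure the spread left among class sums after differences between libraries were taken out.

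On simulated counts of 16770 genes in the comparison of LSD1KO with WT library sums, the test found 63 of 100 genes with a 2-fold change, 99 of 99 with a 4-fold change and 9 of 16571 with none. The simulation gave all genes the same dispersion and changed a far smaller share of genes than the 44.2% called in the data. Its rates may thus not hold for the data. The members, lists and markers were chosen with earlier results of these data known. Named genes are the 7 members, the other enzymes of sterol synthesis and, of each other list, up to 4 genes with the largest change among those called with at least 20 CPM in the higher genotype. Srebf2, Msmo1 and Acat2 are also among the 5 genes most alike in pattern. Some genes of the route are not reported here and are left out of the lists and their counts. Leading genes of classes are named by fold. Shh was named after its values had been seen. Alternatives changed the scaling, the test (DESeq2 1.42.0), the filters, the depth per cell, the gate and the libraries used. The genes of each list were tested in 1 fit over all genes.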

Additional observations from a re-analysis of the deposited data

Results flagged for a closer look

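The difference between genotypes was not the same in every gated class for 2 of the 7 genes, by a test of the difference itself. For Idi1 the LSD1KO over WT log2 fold change was lower in the neural than in the pluripotent class by a difference of −0.74, and lower in the mixed than in the pluripotent class by −0.89. For Fdps the difference between the neural and the pluripotent class was −0.68. Both genes had positive values in the pluripotent class and negative values in the other classes, and the test was chosen with the data in view. The values without each library in turn ran between −0.69 and −0.79 for Idi1 in the neural class, between −0.55 and −1.03 for Idi1 in the mixed class and between −0.49 and −1.03 for Fdps, with adjusted p-values of 0.056 to 0.545 from edgeR's quasi-likelihood test. Depth and cell numbers differed between the arms of this test, with 30 mixed and 45 pluripotent cells in WT replicate 1, and their part in the result was not tested.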

How the results depend on the processing

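Of 90 recomputed counts of calls, 71 stayed within 1.5 times the count reported. Leaving out each library gave 1 to 5 of the 7 genes lower in whole LSD1KO EBs (3 with all), 0 to 5 in the mixed class (4) and 1 to 6 in the neural class (2), and log2 fold changes of Sqle in whole EBs of −0.348 to 0.055. Plain library totals gave 2 genes lower in the mixed class (4), 1 in the neural class (2) and 1 pair of gene and class higher in LSD1KO EBs (3). A gate of at least 4 markers, leading by 2, gave 1 higher pair in LSD1KO and 7 in WT EBs (15), and Fdps in heart and lateral mesoderm turned to −0.042. This gate leaves the mixed class as it is. It fitted 7 classes in WT and 3 in LSD1KO EBs, so the classes in each contrast changed with it. A gate of 2 markers gave 1 lower pair in LSD1KO EBs (0). Cells thinned to 1000 UMIs gave 0 higher pairs in LSD1KO EBs, and 4 higher and 4 lower pairs in WT EBs (15 each), on far fewer UMIs. Fdps then turned to −0.072 in the pluripotent class of LSD1KO EBs and to 0.044 in that of WT EBs. With DESeq2, Fdps passed in whole EBs (adjusted p = 0.0383), as it did with thinned cells (0.019).

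Of the recomputed values of single genes that had a test, 598 kept their direction and side of the threshold, 70 lost and 20 gained the call, and 26 with no call changed sign, as did 4 more: Sqle in whole EBs and the 3 values of Fdps above. In the class contrasts within a genotype, 1 library leaves no residual degrees of freedom, so each library alone gave a value with no test. Replicate numbers were shared between genotypes, but with 2 pairs they do not show a pairing, and the deviations of same-numbered libraries correlated at r = 0.19 over 16953 genes. With the replicate block, 5 of 7 genes were lower in the neural class and 1 in the pluripotent class. Idi1 passed in the mixed class. No share of all genes is given for these counts. Depth limits the genes with few UMIs most, as with 3 of Lss in the streak class of LSD1KO replicate 2.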
